A study of Mus musculus with 24 samples.

Results

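Papola, Ints3 and Ints6 encode a poly(A) polymerase and a pair of Integrator subunits, and were selected on the limma differences of irradiated from control mouse kidney. Their probes were found by NCBI gene ID, which gave 3 genes with 4 probes among the 46116 probes of the array. Papola had 2 probes, 4200286 and 4850112. Ints3 had probe 2850494 and Ints6 had probe 6040736. Mice were kept for 485 days in γ-rays from a 137Cs source for 22 h a day, to ask which transcripts differ after long exposure at low dose rates. The groups were unirradiated control, a low dose rate of 0.032 μGy/min (21 mGy in total), a mid dose rate of 0.65 μGy/min (420 mGy) and a high dose rate of 13 μGy/min (8000 mGy). Kidney and testis were taken when exposure ended, and each gave 3 Illumina Mouse-6 bead arrays per group, 24 in all. The labels count 12 mice, 3 per condition, and do not say which kidney and testis arrays share a mouse. The strain and age of the mice were not given in the sources used here.

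Most messenger RNAs are made by cutting the nascent transcript behind a polyadenylation signal and adding a poly(A) tail to the new end. PAPOLA, the main nuclear poly(A) polymerase, adds that tail after the cleavage factors have recognised the signal. Integrator is a separate complex on RNA polymerase II that cuts the 3′ ends of small nuclear RNAs and ends transcription of paused polymerases early. INTS6 belongs to the arm that carries protein phosphatase 2A, and INTS3, in human cells, also sits in the SOSS complex that binds single-stranded DNA at breaks.

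The promoter windows of the 3 genes are shown because each holds the start region of a member, where sequence the 3 genes do or do not share can be read. They come from RefSeq on GRCm38.p6 and run from 250 bases before to 50 bases after the transcript start, 5′ to 3′ on the gene's strand. Papola lies at chr12:105784447-105784746 on the + strand, Ints3 at chr3:90433587-90433886 on the − strand and Ints6 at chr14:62761063-62761362 on the − strand. Capitals mark matches, on either strand, to the motifs named after the sequences.
Papola: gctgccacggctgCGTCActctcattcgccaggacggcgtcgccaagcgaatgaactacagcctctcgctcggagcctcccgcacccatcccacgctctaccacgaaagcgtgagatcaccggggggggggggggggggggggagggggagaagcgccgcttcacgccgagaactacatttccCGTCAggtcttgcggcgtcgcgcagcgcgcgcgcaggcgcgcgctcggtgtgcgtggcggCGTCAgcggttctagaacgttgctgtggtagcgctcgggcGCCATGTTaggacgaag
Ints3: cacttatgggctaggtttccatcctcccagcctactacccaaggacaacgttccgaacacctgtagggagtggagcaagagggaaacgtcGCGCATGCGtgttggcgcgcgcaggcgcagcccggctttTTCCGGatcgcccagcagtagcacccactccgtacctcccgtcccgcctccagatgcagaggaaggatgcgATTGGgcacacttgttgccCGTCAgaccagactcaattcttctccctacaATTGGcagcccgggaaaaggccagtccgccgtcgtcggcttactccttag
Ints6: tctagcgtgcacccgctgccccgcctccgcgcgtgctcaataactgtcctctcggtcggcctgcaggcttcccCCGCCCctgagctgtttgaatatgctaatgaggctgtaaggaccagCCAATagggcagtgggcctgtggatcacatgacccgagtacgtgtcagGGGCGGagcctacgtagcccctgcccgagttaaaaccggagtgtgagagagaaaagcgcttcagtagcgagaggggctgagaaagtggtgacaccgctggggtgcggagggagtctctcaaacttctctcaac
G and C made up 68.3% of the Papola window and 60% of both the Ints3 and the Ints6 window, against a median of 52.7% and an upper quartile of 61.7% over 32817 such windows. They held 40, 23 and 19 CpG pairs in the same order, against a median of 7 and an upper quartile of 20. No motif searched was in all 3. TGACG, the half-site of cAMP response elements, was in Papola and Ints3 and in 20.8% of all windows, and CCAAT was in Ints3 and Ints6 and in 37.4%. Papola alone of the 3 held GCCATNTT, the YY1 core, found in 6.04% of windows. Ints3 alone held GCGCATGCG, the NRF1 motif (1.75% of windows), and CCGGAA, the ETS core (14.9%). Ints6 alone held GGGCGG, the GC box (35.6%). TATAAA (13.6% of windows) and the p53 half-site (8.36%) were in none of the 3. Both strands were searched and no match overlapped another. A match is a description of letters and not a binding site.

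In kidney each of the 3 genes was compared with control, and differences between the genes were not tested. Papola was lower at the mid and high dose rates and level with control at the low one. Ints3 was lowest at the mid dose rate, and Ints6 was higher at the low dose rate and overlapped control at the others. These kidney contrasts chose the genes, so the kidney values of the members are a description and carry no test. Values are deposited signals in intensity units, which the authors had normalized and background-subtracted. Differences are on the log2 scale after background correction and quantile normalization with limma, each with its SE. In whole tissue, fewer cells of a type and less RNA per cell cannot be told apart.

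Papola probe 4200286 read 368, 441 and 409 intensity units on control arrays 2, 3 and 4, and 437, 354 and 430.3 on low arrays 2, 3 and 4. It read 249, 282 and 295 on mid arrays 1, 3 and 4, and 302, 279.7 and 262 on high arrays 1, 2 and 3. The control and low arrays overlapped, and every mid and high array lay below every control and low array. The means were 406 ± 36.4 for control, 407 ± 46.0 for the low, 275 ± 24.0 for the mid and 281 ± 20.1 for the high dose rate (SD, n = 3). Against control, the log2 difference of Papola was −0.02 at low, −0.50 at mid and −0.46 at the high dose rate (SE 0.08 each), which is 0.709 times control at mid and 0.728 times control at the high dose rate. In the order of the levels, control and low could not be separated beyond their spread, nor could mid and high. The sign of the small low difference turned to +0.02 without control array 3 and to +0.06 without low array 3. With median scaling in place of quantile normalization it was −0.16, or −0.09 relative to the median of all probes.

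**Figure D1:**
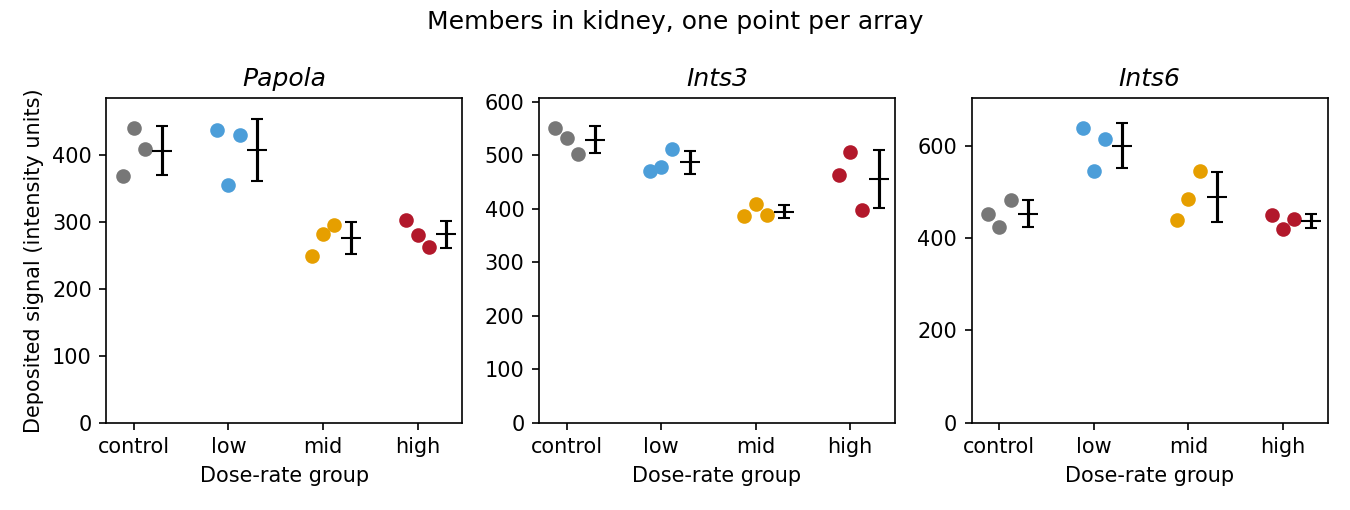
Deposited signal (intensity units, y axis from 0) of Papola, Ints3 and Ints6 in kidney by dose-rate group, with 1 point per array and the mean ± SD beside them (n = 3 each). Papola at mid and high dose rate lies between 249 and 302, below all control and low arrays, while Ints6 at low dose rate lies above all control arrays.

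The other Papola probe, 4850112, gave no reading to set beside this. Its detection score, a fraction from 0 to 1 that marks brightness over the negative controls, was 0.176 to 0.813 in kidney and above 0.99 on 0 of 12 arrays. The bright probes of all 3 genes had a score of 1 on all 12 kidney arrays, each from 24 to 59 beads. The Papola values therefore rest on a single probe. Where in the transcript the probes lie was not given in the sources used here.

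Ints3 read 552, 532 and 501 intensity units on the control arrays, and 471, 479 and 511 on the low arrays. On the mid arrays it read 387, 409 and 388, and on the high arrays 463, 506 and 398. Of the 3 mid arrays, 2 lay below all arrays of the other groups and mid array 3 lay just above high array 3, while a single low and a single high array came just above the lowest control array. On the normalized log2 scale no low, mid or high array overlapped control. Mean signals were 528 ± 25.3 for control, 487 ± 21.2 for the low, 394 ± 12.4 for the mid and 456 ± 54.5 for the high dose rate. The log2 difference of Ints3 from control was −0.15 at low, −0.48 at mid and −0.28 at the high dose rate (SE 0.08 each). With median scaling the low difference was −0.32, or −0.25 relative to the median of all probes. The deepest value was at the mid and not at the highest dose rate. The high group had the widest spread, and its difference ran from −0.36 without high array 2 to −0.20 without high array 3.

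Ints6 read 452, 424 and 483 intensity units on the control arrays, and 639.8, 546 and 615 on the low arrays. It read 438, 485 and 546 on the mid arrays and 451, 419.6 and 441 on the high arrays. The low arrays lay above all control and high arrays, and mid array 4 matched the dimmest low array. The signals averaged 453 ± 29.1 for control, 600.3 ± 48.8 for the low, 489.8 ± 54.0 for the mid and 437 ± 15.96 for the high dose rate. The log2 difference of Ints6 from control was +0.44 at low, +0.08 at mid and −0.10 at the high dose rate (SE 0.09 each), or 1.36 times control at the low dose rate. The low difference was +0.27 with median scaling, or +0.34 relative to the median of all probes. Control, mid and high were not separated beyond their spread.

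The values that chose the members lay close to the threshold or outside it. Adjusted p values of limma were 0.0485 for Papola and 0.0485 for Ints3 at mid and 0.0358 for Papola at the high dose rate, just inside 0.05. These calls ended under most of the 17 alternatives tried. Papola stayed inside 0.05 under 5 of 17 at mid (0.0242 to 0.164) and 4 of 17 at the high dose rate (0.0168 to 0.174), and Ints3 at mid under 2 of 17 (0.0310 to 0.179). Outside it were Ints3 at the high dose rate (0.172) and Ints6 at low dose rate (0.395, rank 17 of 10903 probes). Of all kidney probes tested with limma, 0% passed that threshold at low, 0.312% at mid and 0.504% at the high dose rate. Every array of an irradiated group lay below every control array for 6.52% of probes at low, 11.2% at mid and 7.36% at the high dose rate, and above for 5.73% at low. Nothing is read from the members against these shares, since the same contrasts chose them.

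Other measurements of the kidney arrays moved with the groups. On the array's hybridization controls, low-stringency mismatch probes gave 5.67% to 6.82% of the matched signal on control arrays, 5.10% to 6.09% on low, 8.54% to 8.90% on mid and 7.37% to 8.93% on high arrays. This is the same division of arrays as in Papola, and its part in the result was not tested. Nephron markers were measured by 7 probes for 6 of 14 genes, of which 4 probes were above background on all 12 kidney arrays and 2 on none. Their summed signal was 42845 to 49065 on control arrays, 37838 to 43758 on low, 35939 to 39919 on mid and 39281 to 46858 on high arrays. In this sum the mid arrays lay below all controls, and the low and high arrays overlapped control. Papola, by contrast, was lower at both mid and high and level with control at the low dose rate. The part of this sum in the result was not tested. By median kidney signal, Slc34a1 (27517) led it, followed by Slc22a6 (8457).

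Summed signals of immune cell markers were higher on the low arrays, where Ints6 was higher. Macrophage markers, measured by 7 probes for 6 of 8 genes (4 above background on all 12 kidney arrays, 2 on none), summed to 2853 to 3727 on control arrays, 4441 to 7364 on low, 3598 to 4538 on mid and 2972 to 4561 on high arrays. B and plasma cell markers, 3 probes for 3 of 6 genes (2 above background on all 12 arrays, 1 on none), summed to 7334 to 9061 on control arrays, 9956 to 16204 on low, 8945 to 18081 on mid and 2397 to 13367 on high arrays. The T cell list had 1 probe for 1 of 6 genes, Cd3e, above background on 11 of 12 arrays, with 97.6 to 108.8 on control arrays, 140.3 to 145 on low, 77.3 to 126 on mid and 98.99 to 141 on high arrays. All 3 sums were higher on every low array than on every control array, as Ints6 was, and their part in the Ints6 difference was not tested. By median kidney signal, Cd74 (2658) led the macrophage sum, followed by Lyz2 (593). Igkc (8961) led the B and plasma cell sum, followed by Ighm (1111). Of the testis markers, 5 of 5 Leydig cell probes, the Prm2 probe and the Sertoli cell gene Dhh were above background on no kidney array. The Sertoli cell list also holds Wt1, a gene known from podocytes of the kidney too, which was above background on 10 of 12 kidney arrays (median signal 122).

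**Figure D2:**
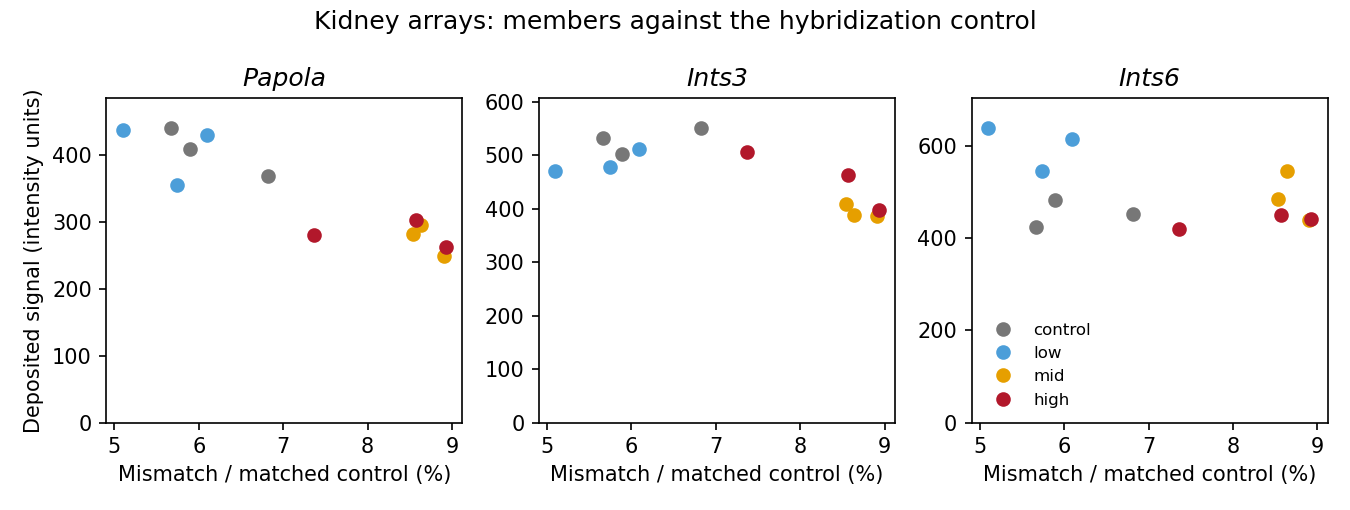
Deposited signal (intensity units, y axis from 0) of each gene on the 12 kidney arrays against the mismatch signal as a percent of the matched hybridization control, with 1 point per array. Control and low arrays lie between 5.10% and 6.82% and mid and high arrays between 7.37% and 8.93%, and Papola separates at the same place.

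Likeness over the 12 kidney arrays was described with Pearson's r against 3437 named probes. These r values hold the group differences, since all points share the same arrays and normalization. Rcor1, a corepressor gene, was most like Papola (r = 0.91), followed by Tns1, a focal adhesion gene (0.88), Sec11a of the signal peptidase (0.88) and Pigs of the GPI transamidase (0.87). For Ints3 the highest were Flywch1 (0.93), Tmem214 (0.91), Gpr108 (0.90) and the co-chaperone gene Dnajb2 (0.90). For Ints6 they were Hpf1, which directs histone ADP-ribosylation at DNA damage (0.91), and the MHC class II gene H2-Ab1 (0.86). Then came Nrros (0.85), Calhm2 (0.85) and Tgs1 (0.85), whose product caps small nuclear RNAs with trimethylguanosine. No gene stood in the first 5 of more than 1 member. Between the members r was 0.76 for Papola and Ints3, 0.50 for Papola and Ints6 and 0.04 for Ints3 and Ints6.

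Among the genes of the 3′-end machinery tested beside the members, none passed in kidney. Lists of 116 genes in 6 groups covered cleavage and polyadenylation, Integrator, pausing and termination, histone mRNA 3′ ends, poly(A) tail metabolism and small nuclear RNA maturation. A named probe was found for 62 of them, and 37 probes of 34 genes were tested in kidney. At low, mid and high dose rate 0 of the 37 passed an adjusted p of 0.05 in either direction (limma, Benjamini-Hochberg over 10903 probes). At an unadjusted p of 0.05 there were 2 at low, 10 at mid (5 of them lower) and 6 at the high dose rate (4 lower), which is 5.41%, 27.0% and 16.2% of them, against 8.33%, 13.6% and 11.9% of all probes. The median log2 difference of the 37 probes was −0.03 at low, 0.02 at mid and 0.02 at the high dose rate, against −0.01, −0.01 and 0.00 over all probes tested.

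Integrator itself was measured through 6 further probes of 6 genes in kidney. Their log2 differences ran from −0.16 to +0.10 at mid and from −0.07 to +0.17 at the high dose rate, with medians of −0.03 and 0.00. Ints11, which encodes the cutting enzyme of the complex, differed by +0.13 ± 0.06 at low, −0.03 ± 0.06 at mid and +0.07 ± 0.06 at the high dose rate. Ints10 gave the lowest p of the list, with −0.16 ± 0.07 at mid dose rate (adjusted p = 0.359). Ints6l, the close relative of Ints6, differed by +0.02 ± 0.06 at low, against +0.44 ± 0.09 for Ints6, and was above background on 8 of 12 arrays. Ppp2r1a, the scaffold of protein phosphatase 2A, differed by +0.22 ± 0.30 at low dose rate. The background correction draws the differences of dim probes, such as most of these, towards 0.

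Cleavage and polyadenylation genes around Papola were measured by 6 probes of 5 genes. Cstf1, a subunit of the cleavage stimulation factor, had log2 differences of −0.25 ± 0.10 at low, −0.34 ± 0.10 at mid and −0.20 ± 0.10 at the high dose rate (adjusted p = 0.536, 0.186 and 0.478). Pabpn1, which binds the growing tail in the nucleus and stimulates the polymerase, differed by +0.29 ± 0.12 at mid dose rate (adjusted p = 0.32). The list's median was 0.05 at low, 0.04 at mid and 0.02 at the high dose rate. The related polymerase genes Papolb and Papolg had no named probe.

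The lowest p values came from the poly(A) tail list, 12 probes of 10 genes. Tut7, which adds uridines to RNAs with short tails, differed by −0.53 ± 0.11 at the high dose rate on probe 6860091 (adjusted p = 0.0643) and by −0.22 ± 0.13 on probe 4590446. Pabpc1, the cytoplasmic poly(A)-binding protein, differed by +0.40 ± 0.09 on probe 5420113 at both mid (adjusted p = 0.115) and high dose rate (adjusted p = 0.0955), and by −0.25 ± 0.09 at low. Its dimmer probe 2650180 gave −0.04 at mid and −0.01 at the high dose rate. Each crossed the threshold at the high dose rate when a single array was left out, Tut7 without high array 1 (−0.63, adjusted p = 0.0447) and Pabpc1 without control array 2 (+0.48, adjusted p = 0.0278). Neither was called under any other alternative. The count of all kidney probes called at the high dose rate was 55 with all arrays. It was 203 without control array 2 and 37 without high array 1. Cnot6, a deadenylase gene, differed by +0.21 ± 0.06 at mid dose rate (adjusted p = 0.17).

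The remaining lists were led by other probes. Srrt, whose product joins the cap-binding complex to 3′-end factors, differed by −0.27 ± 0.09 at the high dose rate (adjusted p = 0.242). Snupn, the import receptor of small nuclear ribonucleoproteins, differed by −0.32 ± 0.11 at mid dose rate (adjusted p = 0.243). Snapc4, of the complex that activates small nuclear RNA genes, differed by +0.11 ± 0.05 at mid dose rate (adjusted p = 0.358) and was above background on 6 of 12 arrays. Supt4a, part of the pausing factor DSIF, differed by +0.25 ± 0.12 at low, +0.25 ± 0.12 at mid and +0.26 ± 0.12 at the high dose rate, and its lowest adjusted p was 0.401. Nelfa, of the pausing factor NELF, differed by −0.20 ± 0.13 at mid dose rate.

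**Figure D3:**
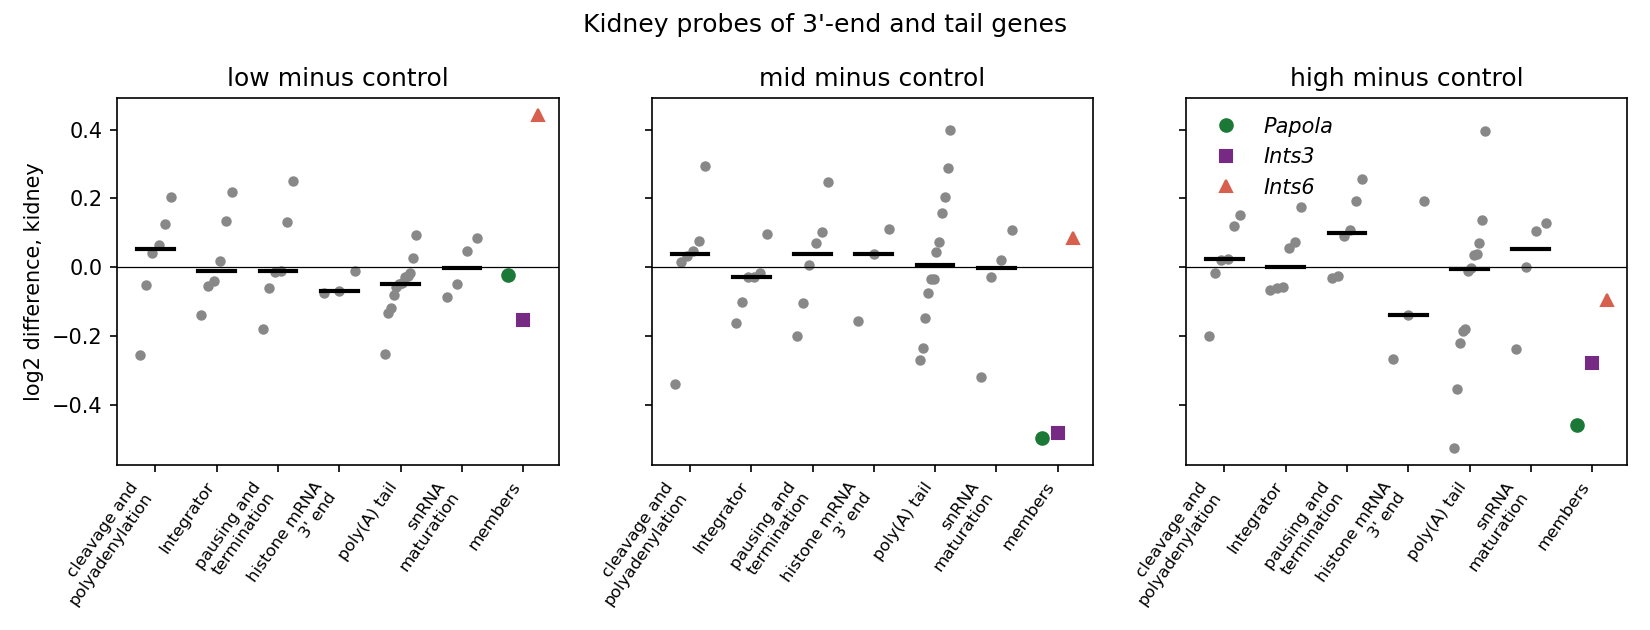
The log2 difference from control in kidney of each tested probe of the 6 gene lists (grey points, black bar at the list median) and of the 3 members (coloured), at low, mid and high dose rate. The list medians stay between −0.14 and +0.10, and the lowest list probe is Tut7 at the high dose rate (−0.53). The members were chosen on these values, so their place among the lists is a description.

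The rule used kidney contrasts, so the members were tested in testis. With 12 mice in the labels, testis and kidney arrays may come from the same animals. No member passed the test in testis at any dose rate. Prm2, a sperm chromatin gene, checked the tissue label: its signal was 48244 to 72515 over the 12 testis arrays. Of the 7 nephron marker probes, 0 were above the noise limit on all 12 testis arrays and 3 were above it on none. The testis signals are intensities from the deposited value table, and how they were normalized was not given in the sources used here, so levels are not compared between the tissues.

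Papola probe 4200286 read 1552, 1359 and 1373 intensity units on control arrays C102, C109 and C110, and 1276, 1270.0 and 1474 on low arrays L117, L118 and L119. It read 1251, 1340.1 and 1267 on mid arrays M125, M129 and M130, and 1117, 967 and 1040.45 on high arrays H132, H134 and H139. All 3 high arrays lay below every array of the other groups. Every mid array also lay below every control array, with the low arrays overlapping both, while on the normalized log2 scale mid overlapped control. The share of all probes whose deposited signals at mid lay below control in this way was not counted, so nothing is read from it. Means were 1428 ± 107 for control, 1339.9 ± 116 for the low, 1286 ± 47.6 for the mid and 1042 ± 75.1 for the high dose rate (SD, n = 3). The log2 difference of Papola from control was −0.05 ± 0.12 at low (adjusted p = 1) and −0.10 ± 0.12 at mid dose rate (adjusted p = 0.909). At the high dose rate it was −0.38 ± 0.12, or 0.768 times control (95% interval −0.65 to −0.11, unadjusted p = 0.0103, adjusted p = 0.381 in limma over 28816 probes). Papola was lower on 3 of 3 high arrays, and the difference failed the correction. Its adjusted p ran from 0.0738 to 0.645 over the alternatives tried. The SE of Papola depended on the processing. It was 0.07 with a floor of 64 (adjusted p = 0.0738) and with no filter (adjusted p = 0.131), against 0.12 here. Of all testis probes, 9.69% had an unadjusted p under 0.05 at the high dose rate, 0.0174% passed the adjusted threshold (0.0174% at low and 0.0521% at mid), and 8.04% had every high array below every control array.

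Against the kidney, where Papola was lower from the mid dose rate on, the mid difference in testis was −0.10 with a 95% interval of −0.37 to +0.17. Probe 4850112 was above the noise limit of its array on 1 of 12 testis arrays, mid array M130 (108), and has no fold. Leydig cell markers, 5 probes for 4 of 7 genes (2 above the limit on all 12 arrays, 1 on none), summed to 7899 to 11089 at the high dose rate, against 9396 to 11731 in control. Sertoli cell markers, 2 probes for 2 of 8 genes, both above the limit on all 12 arrays, summed to 1700.0 to 2331 at the high dose rate, against 1846 to 1972 in control. Both sums overlapped between the groups. Prm2, the only germ cell gene of 13 with a named probe, was 64618 to 72515 at the high dose rate, against 55521 to 67433 in control, and its part in the Papola value was not tested.

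Ints3 read 949, 833 and 985 intensity units on the testis control arrays, and 835, 895 and 750.2 on the low arrays. On the mid arrays it read 715, 811 and 877, and on the high arrays 1072, 1168 and 895. The high arrays included the brightest pair of the 12, and every irradiated group overlapped control. The signals averaged 922 ± 79.1 for control, 827 ± 72.7 for the low, 801 ± 81.6 for the mid and 1045 ± 138.8 for the high dose rate. The log2 difference of Ints3 was −0.11 ± 0.15 at low (adjusted p = 1), −0.19 ± 0.15 at mid (adjusted p = 0.852) and +0.24 ± 0.15 at the high dose rate (adjusted p = 0.656). The 95% interval at the high dose rate was −0.10 to +0.58, while the kidney difference at that dose rate was −0.28.

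Ints6 read 4459.6, 4534 and 4336 intensity units on the testis control arrays, and 4403, 4409 and 4903 on the low arrays. It read 4671, 4404 and 4473 on the mid arrays, and 4125, 4686 and 4335 on the high arrays. The deposited signals of all groups overlapped. Their means were 4443 ± 100.3 for control, 4572 ± 287 for the low, 4516 ± 138.7 for the mid and 4382 ± 284 for the high dose rate. After normalization the log2 difference was +0.11 ± 0.11 at low (adjusted p = 1), +0.08 ± 0.11 at mid (adjusted p = 0.934) and +0.07 ± 0.11 at the high dose rate (adjusted p = 0.896). With median scaling in place of quantile normalization the sign turned at low (−0.16) and mid (−0.11). On the normalized scale the low and mid arrays did not overlap control, as for 4.38% and 7.23% of all testis probes in that direction. The 95% interval at low dose rate was −0.15 to +0.36, against the kidney difference of +0.44. The SE of Ints6 there was 0.05 with a floor of 64 and with no filter.

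**Figure D4:**
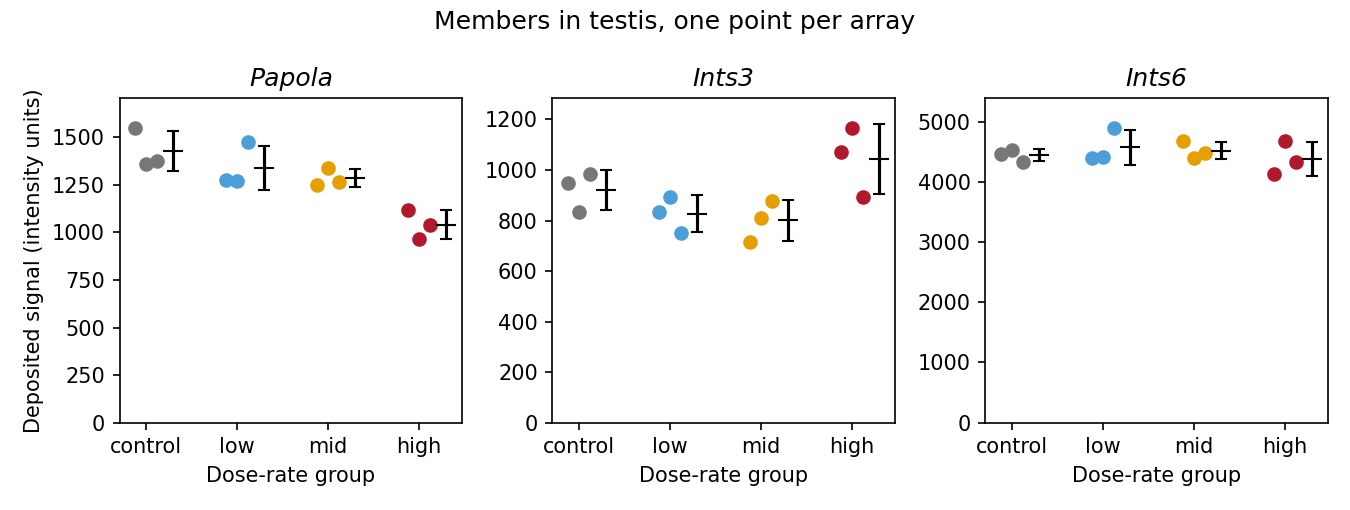
Deposited signal (intensity units, y axis from 0) of Papola, Ints3 and Ints6 in testis by dose-rate group, with 1 point per array and the mean ± SD beside them (n = 3 each). Papola at the high dose rate lies between 967 and 1117, below all other arrays, and for Ints3 and Ints6 each irradiated group overlaps control.

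**Figure D5:**
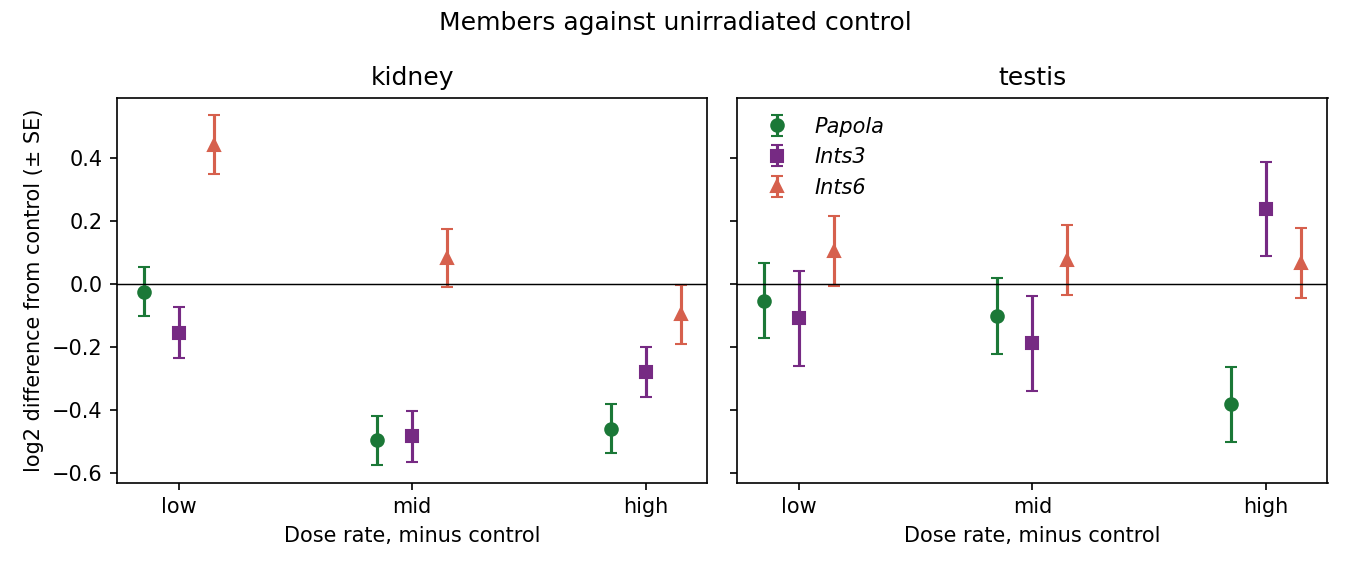
The log2 difference from control (± SE) of the 3 genes at low, mid and high dose rate in kidney (left) and testis (right). Papola is at −0.46 in kidney and −0.38 in testis at the high dose rate, and Ints3 at −0.28 in kidney and +0.24 in testis.

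No probe of the 3′-end lists passed the test in testis. Of 67 probes of 55 genes, 0 passed an adjusted p of 0.05 at low, mid or high dose rate (limma), and 1, 5 and 3 had an unadjusted p under 0.05. That is 1.49%, 7.46% and 4.48% of them, against 4.36%, 7.73% and 9.69% of all testis probes. Their median log2 difference was 0.04 at low, 0.01 at mid and −0.03 at the high dose rate, against 0.00, −0.02 and 0.00 over all probes. Tut7 probe 6860091 again had the lowest p at the high dose rate, −0.51 ± 0.14 (adjusted p = 0.316), while its probe 4590446 gave −0.02. Pabpc1 probe 5420113 differed by +0.37 ± 0.12 at mid dose rate (adjusted p = 0.462) and Cnot6 by +0.50 ± 0.16 (adjusted p = 0.477). The other Pabpc1 probes, above the noise limit on all 12 arrays, gave −0.25 (2650180) and +0.02 (2690253) at mid dose rate. In kidney Tut7 probe 6860091, Pabpc1 probe 5420113 and the Cnot6 probe had log2 differences of −0.53, +0.40 and +0.21 at the same dose rates. None passed the test in either tissue. Larp7, which stabilises the 7SK RNA, differed by +1.02 ± 0.37 at the high dose rate (adjusted p = 0.433). It was dim, with a control mean of 6.85 on the log2 scale, and above the noise limit on 11 of 12 arrays. Toe1, which trims small nuclear RNA tails, differed by +0.36 ± 0.15 at mid (adjusted p = 0.611). Cstf3, a subunit of the cleavage stimulation factor, differed by +0.41 ± 0.18 at mid dose rate on probe 5570458 (adjusted p = 0.644). Its probe 3850156 gave −0.003. Npat, which activates histone genes, differed by +1.48 ± 0.55 at low dose rate (adjusted p = 1) and was above the noise limit on 1 of 12 arrays. Among Integrator genes Ints10 differed by −0.35 ± 0.16 at high (adjusted p = 0.528) and Ints11 by −0.70 ± 0.35 at mid dose rate (adjusted p = 0.698). At the same dose rates the kidney log2 differences were −0.03 for Toe1, +0.02 for Cstf3 probe 5570458, −0.07 for Ints10 and −0.03 for Ints11. Larp7 and Npat were not tested in kidney.

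Over the 12 testis arrays the genes most like each member were others than in kidney. Papola was closest to Sertad2 (r = 0.92), Fam118a (0.91), Zfp518a (0.90), Pcyt1a of phosphatidylcholine synthesis (0.89) and Gpn3 (0.89). Ints3 was closest to the ribosome biogenesis gene Pes1 (0.92), then Mms22l (0.89), Pip5k1a (0.87), Zfp445 (0.87) and 6430548M08Rik (0.85). Ints6 was closest to Btrc, a ubiquitin ligase subunit gene (0.89), then Kctd12b (0.89), Ly6g6d (0.88), the histone demethylase gene Kdm2a (0.82) and Lman1 (0.82). The searches covered 6930 to 6931 named probes, and the points share arrays and normalization as in kidney.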

How the data were processed

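Kidney and testis RNA was hybridized to 24 Illumina Mouse-6 bead arrays. Kidney signals are an intensity that the authors normalized by the rank-invariant method in BeadStudio 1.5.0.34, per the file headers, with background subtracted. The deposited detection score is a fraction and the deposited bead count is the number of beads per probe. Hybridization control signals stand in a separate block of the same table with 1 row per array, matched to arrays by their identifiers. Another 23 per-sample columns were not used. Testis intensities come from the deposited value table, and their normalization was not given in the sources used here.

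Probes were named by a zero-padded gene ID in the target name, looked up in RefSeq (GRCm38.p6). Gene IDs were found for 82.6% of 11897 such numbers, which named 9832 probes and left 36284 unnamed. Kidney signals were corrected in R 4.3.3 (limma 3.58.1) with neqc (offset 16), quantile normalized and kept where the score was above 0.99 on at least 3 arrays (10903 probes). Testis signals were floored at 16, put on a log2 scale, quantile normalized and kept where above the array median on at least 3 arrays (28816 probes). The testis noise limit is the percentile 99 of values below 0, mirrored around 0 (84.5 to 133.6). All 12 arrays of a tissue entered 1 fit. Each dose rate was compared with control, two-sided, with Benjamini-Hochberg adjustment over all probes. Where arrays are not from separate animals, p measures the spread between arrays only, and the number of arrays limits the precision. The fit was tested on simulated data with independent noise for each probe and array. That noise held no structure by replicate number, so the simulation cannot speak to it.

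The members and lists were chosen with earlier results of these data known. Named are all member probes, list genes past the threshold, the 2 list genes with the lowest p per tissue, list and comparison (given where they had an unadjusted p under 0.05 or a role beside a member), and the 5 named probes most correlated with each member, of which 2 are not reported here. Other probes of those genes, and Ints6l and Ppp2r1a at low dose rate, were added after their values were seen. Testis genes with no array above the noise limit are given no value. Alternatives changed the background correction, noise estimate, scaling, floor, filter and replicate block, and left out each array in turn.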

Additional observations from a re-analysis of the deposited data

Results flagged for a closer look

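At the high dose rate Ints3 was lower on every kidney array (log2 difference −0.28) and higher on every testis array (+0.24) than its control mean, on the normalized scale. The difference between the tissues was not tested, and this holds for all values that follow. Opposite signs on every array were found for a few further genes among 25 probes compared over 3 dose rates each. The share of all probes with such signs was not counted, so nothing is read from them. The 3 arrays of a group are set against the same control mean, and the kidney contrasts chose Ints3. Apart from the members, the probes compared were list probes named for the lowest p values of their list in these same contrasts. Pabpn1 at mid dose rate was +0.29 in kidney and −0.0896 in testis. Supt4a at low dose rate was +0.25 in kidney and −0.18 in testis, and Srrt was −0.0696 in kidney and +0.0786 in testis. Ints7 was below 0 in kidney and above 0 in testis throughout, with −0.0545 and +0.17 at low, −0.0301 and +0.12 at mid and −0.0611 and +0.15 at the high dose rate. Ints11 at the high dose rate was +0.0729 in kidney and −0.56 in testis, and Supt5, part of the pausing factor DSIF, was +0.11 and −0.21.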

How the results depend on the processing

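The kidney differences of Papola and Ints3 at mid and high dose rate and of Ints6 at low kept their sign under all 17 alternatives each. These contrasts chose the genes, so a kept sign is a description and carries no test. With signals floored at 16 and no background correction, Papola was −0.62 at mid and −0.56 at the high dose rate, and with the noise taken from central scores −0.60 at mid. With median scaling Papola at low was −0.16, Ints3 at low −0.32 and Ints6 at low +0.27. The median of all kidney probes at low was then −0.07, and relative to it the 3 genes were −0.09, −0.25 and +0.34. Papola at low turned sign when an array was left out (−0.0914 to +0.0570): +0.02 without control 3 and +0.06 without low 3. The kidney count of 34 probes at mid became 6 floored, 2 with central noise, 6 with median scaling and 10 unfiltered, and the 55 at high became 29 floored, 16 with median scaling and 19 unfiltered. Leaving out an array gave 1 to 103 at mid, moving the count by over 1.5 times for every array but control 2 and low 2. It gave 2 to 203 at high, with the same move for every array but low 2, low 4 and high 1. The kidney list count at high was 0 to 1.

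With the replicate number as a block the kidney counts were 14 at mid and 27 at the high dose rate. The numbers share no stated origin: 10 of 13 same-numbered pairs correlated above 0.1 (−0.17 to 0.47), and 7 of 12 arrays were closest to their own number. The median r was 0.19 for same-numbered pairs, against −0.05 for the 41 pairs with unlike numbers. The main fit does not include the number. Under the block the calls of Papola at mid (adjusted p = 0.0956) and high (0.0925) and of Ints3 at mid (0.0867) ended. The list counts stayed at 0 and no member changed sign.

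In testis no alternative called a member. Median scaling turned Ints6 to −0.16 at low and −0.11 at mid dose rate. It moved the median of all probes by −0.21 at low and −0.16 at mid, and relative to that median Ints6 was +0.05 at both. The testis counts of 5, 15 and 5 at low, mid and high were 2, 54 and 66 with a floor of 64, 0, 0 and 2 with shifted signals and 0, 9 and 0 with median scaling. Without a filter mid gave 42 and high 11. Leaving out an array gave 0 to 11 at low, moved by every array but L119. It gave 0 to 24 at mid, moved by every control and mid array and H132, and 0 to 18 at high, moved by every array but C102, C110, M129 and H132. Slide as a block was not run, since the slide of each array was not given in the sources used here. The cause of these moves was not tested.

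The neqc noise SD was 175 to 218 intensity units, against 19.8 to 28.4 from central scores, so dim kidney probes have differences drawn towards 0. With 3 arrays per group and a single bright probe per gene, no probe-level repeat of any member exists here.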
